A study of Mus musculus with 12 samples.

Results

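Expression of 32 mouse genes of cholesterol and fatty acid synthesis was examined in CD11b-selected brain cells by RNA-seq. The genes were taken by symbol from the deposited table of 36491 gene identifiers; all 32 were found, and all 32 passed the filter on low counts that left 18875 genes to test. Of them, 18 encode enzymes of sterol synthesis, 8 encode enzymes of fatty acid synthesis and desaturation, and 6 encode proteins that control the pathway. All mice were wild-type adult male C57BL/6J aged 6 months that had received a bone marrow transplant, then food with PLX5622, which blocks the CSF1 receptor and so removes microglia, for 2 weeks, and then standard chow for 6 weeks. Irradiation before the transplant was given either to the whole body, called unshielded here, or with the head covered by a shield, called shielded. Each mouse then received 50 µg of lipopolysaccharide (LPS), which comes from the wall of certain bacteria and triggers inflammation, or saline into the peritoneum, and CD11b-positive cells were taken with magnetic beads 6 hours later. The 4 groups were unshielded LPS, shielded LPS, unshielded without LPS and shielded without LPS, with 3 libraries each. CD11b beads take both microglia and marrow-derived macrophages, so the sorted cells can hold either, and fewer cells of a type and less RNA per cell cannot be told apart in such bulk samples.

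Cells build cholesterol from acetyl-CoA through mevalonate, farnesyl diphosphate, squalene and lanosterol, and build fatty acids from acetyl-CoA and malonyl-CoA. The SREBP transcription factors switch on the genes of both routes. Scap carries SREBP from the endoplasmic reticulum to the Golgi for activation when sterols are low, and the Insig proteins hold it back when sterols are high. In brain macrophages the same genes supply membranes and the sterols from which oxysterol signals are made.

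Library totals ranged from 18090977 to 60495968 counts, with the unshielded LPS libraries on top. For libraries 2 and 3 of the shielded group without LPS the title and the treatment field disagree, since the field gives LPS. Levels are given as CPM, a gene's counts scaled to its library's size after TMM, which sets the scale by the genes that differ least. Library totals, named below as the other scaling, are the sizes without TMM. P2ry12, a microglial marker, had 524 to 631 CPM in shielded LPS and 2113, 2716 and 2007 CPM in shielded libraries 1, 2 and 3 without LPS. Ch25h had 48.99 to 104 CPM in shielded LPS and 4.78, 3.33 and 3.05 CPM in these libraries without LPS, and Fn1 446 to 501 CPM and 42.6, 74.6 and 52.1 CPM. Libraries 2 and 3 thus lay beside library 1 and outside the range of shielded LPS in these 3 genes. The 3 were chosen after their values were seen. The groups follow the titles and not these values, and the results that rest on these libraries are given with and without them. The labels do not state whether each library is a mouse of its own, and the p-values therefore speak only of the spread among these libraries, which may be technical. The 10 microglial markers summed to 12781 to 13950 CPM in the unshielded LPS libraries, 19157 to 22123 in shielded LPS, 15400 to 18425 in unshielded without LPS and 25348 to 30221 in shielded without LPS. The 8 oligodendrocyte markers summed to 516.4 to 1027, 241.6 to 778.1, 993.7 to 1303 and 1052 to 1750 CPM in these groups in the same order, and the 10 neuron markers to 134.6 to 251.2, 38.8 to 188.1, 310.0 to 362.4 and 209.1 to 387.2 CPM. The 8 monocyte markers, which include Ccr2, summed to 431.4 to 600.2, 626 to 731.9, 213.2 to 231 and 172.4 to 218.7 CPM. Fn1 carried this sum in shielded LPS, at 98.4 to 146 CPM in unshielded LPS and 446 to 501 CPM in shielded LPS. After LPS it was the 1 monocyte marker called lower in unshielded than in shielded mice. F13a1 was called higher there, and the median log2 difference of the 8 was 0.31. Ccr2 fell with LPS in both settings (-1.05 ± 0.21 in unshielded and -1.57 ± 0.22 in shielded mice) while 7 and 5 of the 8 rose. The 8 neutrophil markers gave 251.1 to 912.3, 278.8 to 475.3, 54.2 to 139 and 147.5 to 335.3 CPM. In unshielded LPS their sum was 912.3 in library 1, 309.1 in library 2 and 251.1 in library 3. LPS raised 5 of the 8 in unshielded mice, beside 24.3% of all genes, and 1 in shielded mice, beside 32.4%. The LPS effect differed between the settings, by test, for 0 of the 8. The 9 endothelial markers gave 128.7 to 205.6, 131.4 to 171.9, 312.4 to 347.1 and 221.8 to 359.7 CPM. The 9 astrocyte markers gave 200.5 to 289.9, 267.8 to 346.6, 258.9 to 323.9 and 230.2 to 288.0 CPM. Slc1a3 carried the astrocyte sum in shielded LPS, at 49.8 to 75.1 CPM in unshielded LPS and 217 to 224 CPM in shielded LPS. Csf1r carried the microglial sum, at 7180 to 9053 CPM in shielded LPS and 7359 to 8910 CPM in shielded without LPS. Of the 10 microglial markers, LPS lowered 8 and raised 1 in shielded mice, beside 35.1% and 32.4% of all genes. It lowered 7 and raised 1 in unshielded mice, beside 18.8% and 24.3%. Gpr34 was at 63.4 to 103 CPM in shielded LPS and 811 to 964 CPM in shielded without LPS. No marker of these lists was at 0 in any library, and the part of other cell types in the results below was not tested unless a value is given.

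The first question was how LPS changed the 2 routes in each irradiation setting. With the TMM scaling used throughout, LPS raised more of the sterol synthesis genes than it lowered in both, among them Hsd17b7, Pmvk and Mvd; with library totals, the sterol calls in unshielded mice were 3 higher and 4 lower. In unshielded mice, 7 of the 18 sterol genes rose, 2 fell and 9 did not pass the test (edgeR's quasi-likelihood test, adjusted p below 0.05), against a background of 24.3% of all tested genes called higher and 18.8% called lower. With any 1 library left out, 4 to 6 rose in unshielded mice. The count was 4 without shielded LPS library 2, shielded library 1 or 3 without LPS, unshielded LPS library 1 or 2, or unshielded library 2 or 3 without LPS, and also 4 with no filter on low counts. In shielded mice, 12 rose, 4 fell and 2 did not pass, against a background of 32.4% called higher and 35.1% called lower. The median log2 fold change of the 18 genes was 0.20 in unshielded and 0.42 in shielded mice, beside medians over all genes of -0.06 and -0.14; scaling by library totals lowered the all-gene medians to -0.36 and -0.49 and the sterol medians to -0.09 and 0.07, so that the unshielded median changed sign. In shielded mice the sterol calls with library totals were 6 higher and 5 lower, where Hmgcs1, Idi1, Lss, Msmo1, Ebp and Sc5d no longer passed as higher. Over all genes, library totals turned 4585 higher and 3543 lower calls into 2656 and 6520 in unshielded mice, and 6119 and 6619 into 4042 and 9131 in shielded mice.

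Of the fatty acid genes, 2 of 8 rose in unshielded mice, near the background of 24.3%, none fell and 6 did not pass, with a median of 0.03 (0 rose, 2 fell and the median was -0.27 with library totals); at an unadjusted p below 0.05, 1 of the 8 was lower, and DESeq2 called 1 lower. In shielded mice 2 rose, 5 fell and 1 did not pass, against 32.4% and 35.1% of all genes, with a median of -0.74. The 2 that rose in both settings were Acaca and Fasn, which make saturated fatty acids, and the 5 that fell in shielded mice were Elovl6, an elongase, and the desaturases Scd1, Scd2, Fads1 and Fads2. Among the 6 control genes, 3 rose and 3 did not pass in each setting, beside the same shares of all genes, and the 3 were Srebf1, Srebf2 and Insig1 both times; with library totals, 1 was called higher and 1 lower in each setting (Insig1 and Insig2 in unshielded, Srebf2 and Scap in shielded mice). Leaving out the 2 libraries of conflicting labels leaves 1 shielded library without LPS, assumed to vary like the other groups. Then 7 sterol genes rose and 1 fell in shielded mice, and 2 fatty acid genes rose and 3 fell. The calls lost were those of Mvk, Idi1, Fdps, Lss, Msmo1, Ebp, Sc5d, Dhcr7, Scd1 and Elovl6. Over all genes, 4524 were called higher and 3845 lower in that fit. With these libraries grouped by the treatment field instead, none of the 26 genes remained called in shielded mice, and 0 of all 20527 genes tested there was called in either direction.

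**Figure D1:**
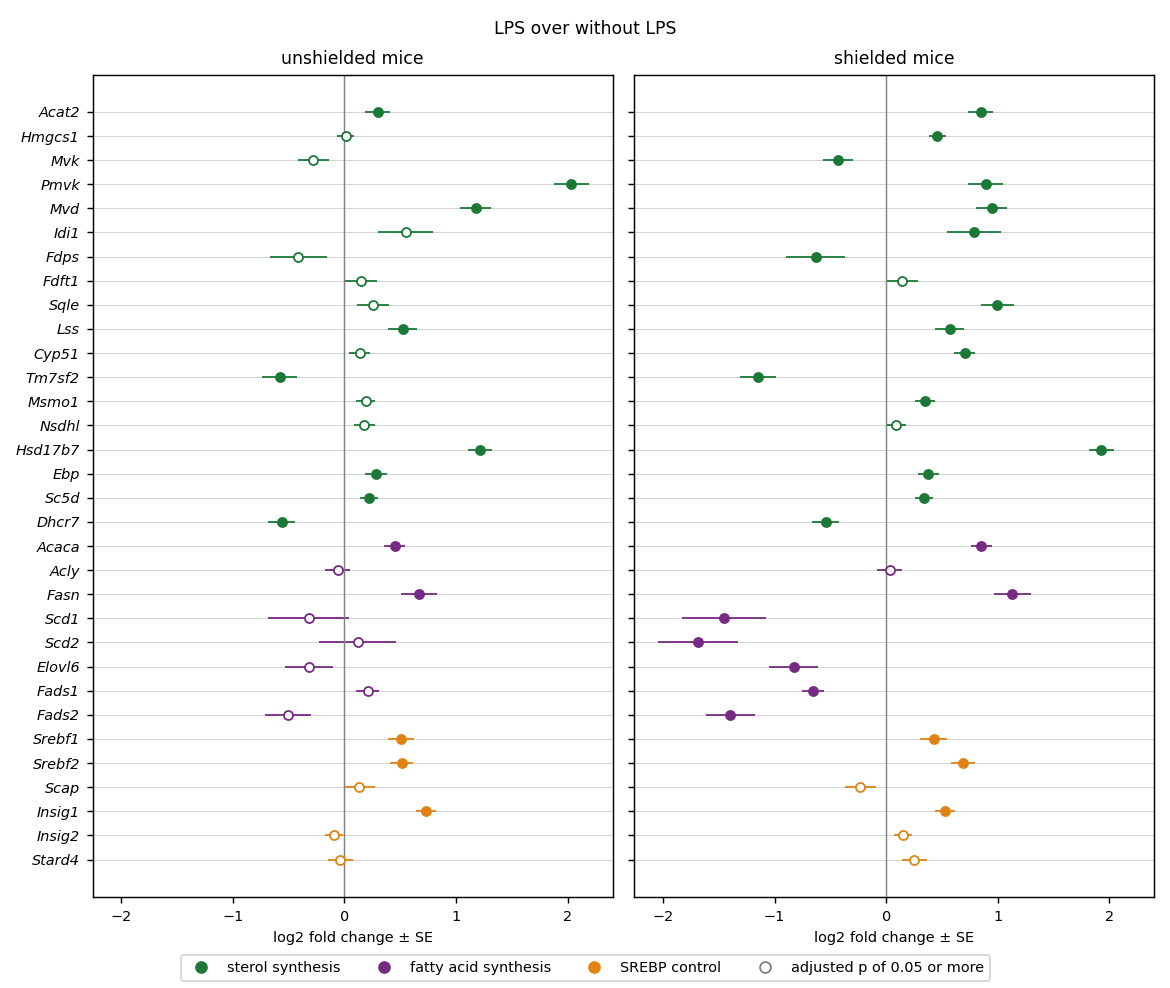
Log2 fold change of LPS over no LPS for the 32 genes in unshielded mice (left) and shielded mice (right), with bars of 1 SE and filled points for adjusted p below 0.05. Pmvk at 2.03 is the highest point on the left and Hsd17b7 at 1.93 the highest on the right, and the lowest point is Scd2 at -1.69 on the right; among genes that pass under either scaling, library totals turn the sign of Hmgcs1, Ebp and Sc5d in unshielded and of Nsdhl, Sc5d and Acly in shielded mice.

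The promoter sequences of the genes were searched for the letters that SREBP and its partner NF-Y are known to bind. RefSeq windows on GRCm38.p6, from 250 bases before to 50 after each annotated start, matched 25 of the 32 genes. They were searched on both strands for TCACNCCAC (the sterol regulatory element), for CACNCCAC, which lies inside it, and for CCAAT, the NF-Y box, which reads ATTGG on the other strand. TCACNCCAC was found in 1 of the 25 genes, Hmgcs1, and in 1.44% of all 27025 genes with a window. CACNCCAC was found in 3 of 25, namely Acat2, Hmgcs1 and Insig1, and in 7.12% of all genes. CCAAT was found in 14 of 15 sterol genes, 2 of 5 fatty acid genes and 4 of 5 control genes, and in 41.1% of all genes. A match is a description of letters and not a binding site. A few of these promoters are shown, the 250 bases before the start, with the matches in capitals: Hmgcs1 and Hsd17b7, sterol genes that LPS raised in shielded mice, and Elovl6 and Fads2, fatty acid genes that fell there. They were chosen after their values were seen and do not stand for all genes with the same direction.
Hmgcs1 (chr13:119690101-119690350, + strand): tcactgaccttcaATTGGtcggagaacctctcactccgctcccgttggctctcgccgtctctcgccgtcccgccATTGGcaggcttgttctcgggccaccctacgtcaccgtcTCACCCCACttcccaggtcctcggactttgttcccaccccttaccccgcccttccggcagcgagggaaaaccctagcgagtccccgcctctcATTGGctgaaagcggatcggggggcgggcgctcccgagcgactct
Hsd17b7 (chr1:169969206-169969455, - strand): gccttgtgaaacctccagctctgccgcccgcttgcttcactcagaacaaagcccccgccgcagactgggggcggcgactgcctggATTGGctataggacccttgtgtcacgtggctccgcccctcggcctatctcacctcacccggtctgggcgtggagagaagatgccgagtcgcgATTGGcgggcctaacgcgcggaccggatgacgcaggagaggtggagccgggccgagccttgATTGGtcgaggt
Elovl6 (chr3:129532136-129532385, + strand): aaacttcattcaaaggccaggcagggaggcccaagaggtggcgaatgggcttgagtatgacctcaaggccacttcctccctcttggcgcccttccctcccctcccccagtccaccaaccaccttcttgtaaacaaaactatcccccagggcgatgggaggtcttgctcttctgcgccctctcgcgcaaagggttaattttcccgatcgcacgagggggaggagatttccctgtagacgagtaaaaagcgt
Fads2 (chr19:10101504-10101753, - strand): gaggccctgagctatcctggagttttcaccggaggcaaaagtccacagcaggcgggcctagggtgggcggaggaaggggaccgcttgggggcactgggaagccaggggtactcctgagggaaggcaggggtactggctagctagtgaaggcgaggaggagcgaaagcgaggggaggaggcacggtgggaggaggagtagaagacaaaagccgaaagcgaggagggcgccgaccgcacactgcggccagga
The Hmgcs1 stretch holds the 1 sterol element and 3 CCAAT boxes, the Hsd17b7 stretch holds 3 CCAAT boxes, all as ATTGG, and the Elovl6 and Fads2 stretches hold none of the 3 motifs. Among genes not shown, Mvk, which fell in shielded mice, has 5 CCAAT boxes in its window. Of Tm7sf2 and Dhcr7, which also fell, Tm7sf2 has 1 and Dhcr7 has 2 in 1 window and 0 in its others. Acaca, which rose, has 0 in the only window matched to it, and Fasn, which also rose, has 3. The 7 genes with no window were Fdps, Fdft1, Sqle, Scd1, Scd2, Fads1 and Stard4. Of the fatty acid genes that fell in shielded mice, only Elovl6 and Fads2 could therefore be searched. A window marks an annotated start and may not hold a gene's main promoter.

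Among the control genes, Srebf2, which encodes the SREBP that mainly drives sterol genes, stood at 100.3, 119.7 and 92.7 CPM in the unshielded LPS libraries, against 70.9, 68.9 and 79.2 CPM in unshielded libraries without LPS. Its shielded values were 120.0, 136 and 122 CPM with LPS, against 74.9, 75.1 and 84.4 CPM without. In both settings every LPS library lay above every library without LPS. The log2 fold change was 0.51 ± 0.10 in unshielded (adjusted p = 0.0017) and 0.69 ± 0.10 in shielded mice (adjusted p = 0.0001). Srebf1, whose SREBP mainly drives fatty acid genes, had 123, 144 and 112 CPM in unshielded LPS libraries, against 92.97, 79.9 and 94.4 CPM without LPS, and 118, 121 and 96.1 CPM in shielded LPS libraries, against 77.6, 84.3 and 88.1 CPM without LPS. It rose by 0.50 ± 0.12 and 0.42 ± 0.12 on the log2 scale in unshielded and shielded mice (adjusted p = 0.0039 and 0.0068), with no overlap between LPS and no LPS in either. Srebf1 shares exons with Rai1 on the other strand and its count is uncertain, since the strand setting of the counting is not given in the sources used here. Insig1, itself an SREBP target and the retention protein of the complex, was measured at 45.4, 55.1 and 49.99 CPM in unshielded LPS libraries, against 32.6, 28.5 and 29.6 CPM without LPS. In shielded mice it was at 42.8, 47.3 and 49.3 CPM with LPS, against 31.7, 32.3 and 32.8 CPM without. It rose by 0.73 ± 0.09 (adjusted p = 3.9e-05) and 0.53 ± 0.09 (adjusted p = 0.00025) in unshielded and shielded mice, again without overlap.

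Insig2, the other retention protein, was not called by LPS in either setting. Its values were 30.9, 26.5 and 28.9 CPM in unshielded LPS, 30.97, 32.8 and 28.4 CPM in unshielded without LPS, 44.5, 42.1 and 40.03 CPM in shielded LPS and 36.9, 39.1 and 38.2 CPM in shielded without LPS. The LPS log2 fold change was -0.09 ± 0.08 in unshielded and 0.15 ± 0.08 in shielded mice. Scap, the escort of SREBP, and Stard4, a carrier of cholesterol between membranes, were not called by LPS either. Scap averaged 71.5 ± 8.75 and 65.1 ± 5.91 CPM in unshielded mice with and without LPS and 70.3 ± 13.2 and 82.5 ± 7.15 CPM in shielded mice with and without LPS (SD, n = 3 each). Stard4 averaged 10.1 ± 0.568 and 10.4 ± 0.490 CPM in unshielded and 14.03 ± 1.87 and 11.8 ± 0.237 CPM in shielded mice in the same order.

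In the mevalonate segment, LPS raised 3 of 7 genes in unshielded mice and 5 of 7 in shielded mice, beside 24.3% and 32.4% of all genes. Pmvk and Mvd, phosphomevalonate kinase and the decarboxylase that follows it, rose in both. Pmvk reached 41.7, 54.5 and 58.9 CPM in unshielded LPS libraries, against 12.97, 12.7 and 12.2 CPM without LPS, and 19.9, 31.4 and 24.1 CPM in shielded LPS libraries, against 13.9, 13.7 and 13.1 CPM without LPS. The groups did not overlap in either setting, and the log2 fold change was 2.03 ± 0.16 in unshielded (adjusted p = 1.2e-06) and 0.89 ± 0.16 in shielded mice (adjusted p = 0.0003). Mvd had 22.3, 30.3 and 21.1 CPM in unshielded LPS libraries, against 10.03, 10.9 and 11.7 CPM without LPS, and 23.1, 24.2 and 19.6 CPM in shielded LPS libraries, against 11.9, 10.8 and 12.1 CPM without LPS. Each LPS library was above each library without LPS, and the log2 fold changes were 1.18 ± 0.14 and 0.94 ± 0.14 in unshielded and shielded mice (adjusted p = 2.7e-05 and 7.4e-05).

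Hmgcs1, the synthase that makes HMG-CoA, behaved otherwise. It was at 39.7, 38.6 and 37.1 CPM in unshielded LPS libraries, against 34.8, 40.3 and 39.4 CPM without LPS, and at 62.9, 64.8 and 65.3 CPM in shielded LPS libraries, against 46.1, 45.95 and 48.4 CPM without LPS. The 3 shielded LPS libraries were above all 9 others, while the unshielded LPS libraries overlapped those without LPS. The log2 fold change was 0.01 ± 0.07 in unshielded (adjusted p = 0.91; -0.29 with library totals, adjusted p = 0.038) and 0.46 ± 0.07 in shielded mice (adjusted p = 0.00016). Acat2, which joins 2 acetyl-CoA at the start of the route, had 8.32, 8.73 and 9.65 CPM in unshielded LPS libraries, against 7.34, 7.26 and 7.11 CPM without LPS, and 13.5, 13.3 and 12.6 CPM in shielded LPS libraries, against 7.69, 6.62 and 7.51 CPM without LPS. Its groups did not overlap, with log2 fold changes of 0.30 ± 0.11 (adjusted p = 0.048) and 0.85 ± 0.11 (adjusted p = 3.2e-05) in unshielded and shielded mice. The unshielded call of Acat2 was lost when any 1 of the 12 libraries was left out (log2 0.24 to 0.34). Acat2 has a near copy, Acat3, and a read can match both.

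The rest of the segment was weaker or lower. Idi1, isopentenyl diphosphate isomerase, averaged 1.88 ± 0.286 and 1.26 ± 0.263 CPM in unshielded mice with and without LPS and 2.96 ± 0.796 and 1.71 ± 0.224 CPM in shielded mice with and without LPS (SD, n = 3 each). It rose in shielded mice (0.79 ± 0.24, adjusted p = 0.013) and was at 0.55 ± 0.25 in unshielded mice (adjusted p = 0.094). Mvk, mevalonate kinase, averaged 9.03 ± 1.08 and 10.95 ± 0.922 CPM in unshielded and 8.11 ± 1.04 and 10.9 ± 0.952 CPM in shielded mice with and without LPS. Fdps, farnesyl diphosphate synthase, averaged 0.870 ± 0.181 and 1.16 ± 0.171 CPM in unshielded and 0.873 ± 0.0520 and 1.35 ± 0.353 CPM in shielded mice with and without LPS. Both fell in shielded mice, with log2 changes of -0.43 ± 0.14 for Mvk (adjusted p = 0.015) and -0.63 ± 0.26 for Fdps (adjusted p = 0.047), and neither passed in unshielded mice (-0.28 ± 0.14 and -0.41 ± 0.26). When the shielded libraries were blocked by replicate number, neither call held (adjusted p = 0.057 for Mvk and 0.093 for Fdps), leaving 2 sterol genes lower. The Mvk call was also lost without shielded LPS library 1 or 3 or shielded library 3 without LPS (log2 -0.53 to -0.35). The Fdps call was lost without any 1 of 10 libraries, all but shielded library 1 without LPS and unshielded LPS library 2 (log2 -0.76 to -0.38). Fdps shares exons with a predicted gene on its own strand.

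At squalene, Sqle, the epoxidase that is a rate-limiting step of the route, stood at 11.4, 11.3 and 9.62 CPM in unshielded LPS libraries, against 8.59, 7.89 and 10.5 CPM without LPS, and at 18.5, 17.6 and 21.6 CPM in shielded LPS libraries, against 8.94, 8.69 and 11.3 CPM without LPS. The shielded groups were apart and the unshielded groups overlapped. Sqle rose by 0.99 ± 0.15 in shielded mice (adjusted p = 7.6e-05) and was at 0.26 ± 0.15 in unshielded mice (adjusted p = 0.17). Lss, which closes the ring to lanosterol, had 22.5, 27.7 and 20.3 CPM in unshielded LPS libraries, against 15.8, 15.5 and 17.8 CPM without LPS, and 20.9, 27.1 and 21.3 CPM in shielded LPS libraries, against 16.2, 14.8 and 15.6 CPM without LPS. It rose by 0.52 ± 0.13 and 0.57 ± 0.13 in unshielded and shielded mice (adjusted p = 0.006 and 0.0021), with no overlap. Fdft1, squalene synthase, averaged 11.3 ± 0.572 and 10.2 ± 0.868 CPM in unshielded and 11.8 ± 2.19 and 10.7 ± 1.34 CPM in shielded mice with and without LPS, and was called in neither. It shares exons with Ctsb on the other strand.

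After lanosterol, the largest change was in Hsd17b7, the 3-ketosteroid reductase of the demethylation steps. It was at 14.7, 15.3 and 12.9 CPM in unshielded LPS libraries, against 5.97, 6.30 and 6.19 CPM without LPS, and at 27.4, 29.00 and 26.2 CPM in shielded LPS libraries, against 6.76, 6.81 and 8.09 CPM without LPS. The LPS and no-LPS values were far apart in both settings, with log2 fold changes of 1.22 ± 0.11 (adjusted p = 3.2e-06) and 1.93 ± 0.11 (adjusted p = 4e-08) in unshielded and shielded mice. Cyp51, lanosterol demethylase, had 20.8, 20.4 and 18.8 CPM in unshielded LPS libraries, against 17.8, 17.1 and 19.6 CPM without LPS, and 29.98, 35.5 and 36.00 CPM in shielded LPS libraries, against 20.2, 20.5 and 21.6 CPM without LPS. As with Sqle and Hmgcs1, the shielded LPS libraries were above all 9 others and the unshielded groups overlapped. The Cyp51 log2 fold change was 0.14 ± 0.09 in unshielded (adjusted p = 0.24) and 0.70 ± 0.09 in shielded mice (adjusted p = 2.8e-05). Its count is uncertain through exons shared with Akap9.

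Tm7sf2 and Dhcr7, a sterol C14 reductase and the 7-dehydrocholesterol reductase of the last step, fell in both settings. Tm7sf2 was at 7.32, 6.90 and 6.65 CPM in unshielded LPS libraries, against 9.82, 10.9 and 10.5 CPM without LPS, and at 3.53, 3.60 and 5.28 CPM in shielded LPS libraries, against 8.68, 9.07 and 9.83 CPM without LPS. Every LPS library was below every library without LPS, with log2 fold changes of -0.58 ± 0.16 (adjusted p = 0.0091) and -1.15 ± 0.16 (adjusted p = 4.7e-05) in unshielded and shielded mice; exons shared with Vps51 make the count uncertain. Dhcr7 was at 17.5, 15.1 and 11.7 CPM in unshielded LPS libraries, against 21.9, 22.03 and 21.4 CPM without LPS, and at 19.9, 18.2 and 19.7 CPM in shielded LPS libraries, against 26.6, 27.6 and 29.8 CPM without LPS. Its groups did not overlap either, and the log2 fold changes were -0.56 ± 0.12 and -0.54 ± 0.12 (adjusted p = 0.0026 and 0.0019).

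The other 4 genes after lanosterol moved less. Sc5d, lathosterol desaturase, had 24.5, 25.2 and 22.4 CPM in unshielded LPS libraries, against 20.3, 21.9 and 19.9 CPM without LPS, and 29.5, 34.1 and 31.3 CPM in shielded LPS libraries, against 24.9, 25.7 and 24.5 CPM without LPS. Its log2 fold changes of 0.22 ± 0.08 (adjusted p = 0.047) and 0.34 ± 0.08 (adjusted p = 0.0031) in unshielded and shielded mice passed the test, and both turned below 0 with library totals (-0.08 and -0.01). The unshielded call was lost without any 1 of 11 libraries, all but unshielded LPS library 3 (log2 0.16 to 0.27). Ebp, the sterol isomerase, averaged 34.3 ± 2.36 and 28.2 ± 2.55 CPM in unshielded and 39.8 ± 3.05 and 30.6 ± 2.26 CPM in shielded mice with and without LPS. It rose by 0.28 ± 0.10 and 0.38 ± 0.10 in unshielded and shielded mice, but the unshielded value was -0.01 with library totals. That unshielded call was lost without any 1 of 7 libraries (log2 0.20 to 0.33), namely shielded LPS 2, shielded without LPS 1 and 3, unshielded LPS 1 and 2 and unshielded without LPS 2 and 3. Msmo1, which demethylates the ring, rose in shielded mice (0.35 ± 0.09, adjusted p = 0.0043) and was at 0.19 ± 0.09 in unshielded mice (adjusted p = 0.10). Nsdhl, its partner enzyme, was called in neither, at 0.18 ± 0.09 and 0.09 ± 0.09.

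**Figure D2:**
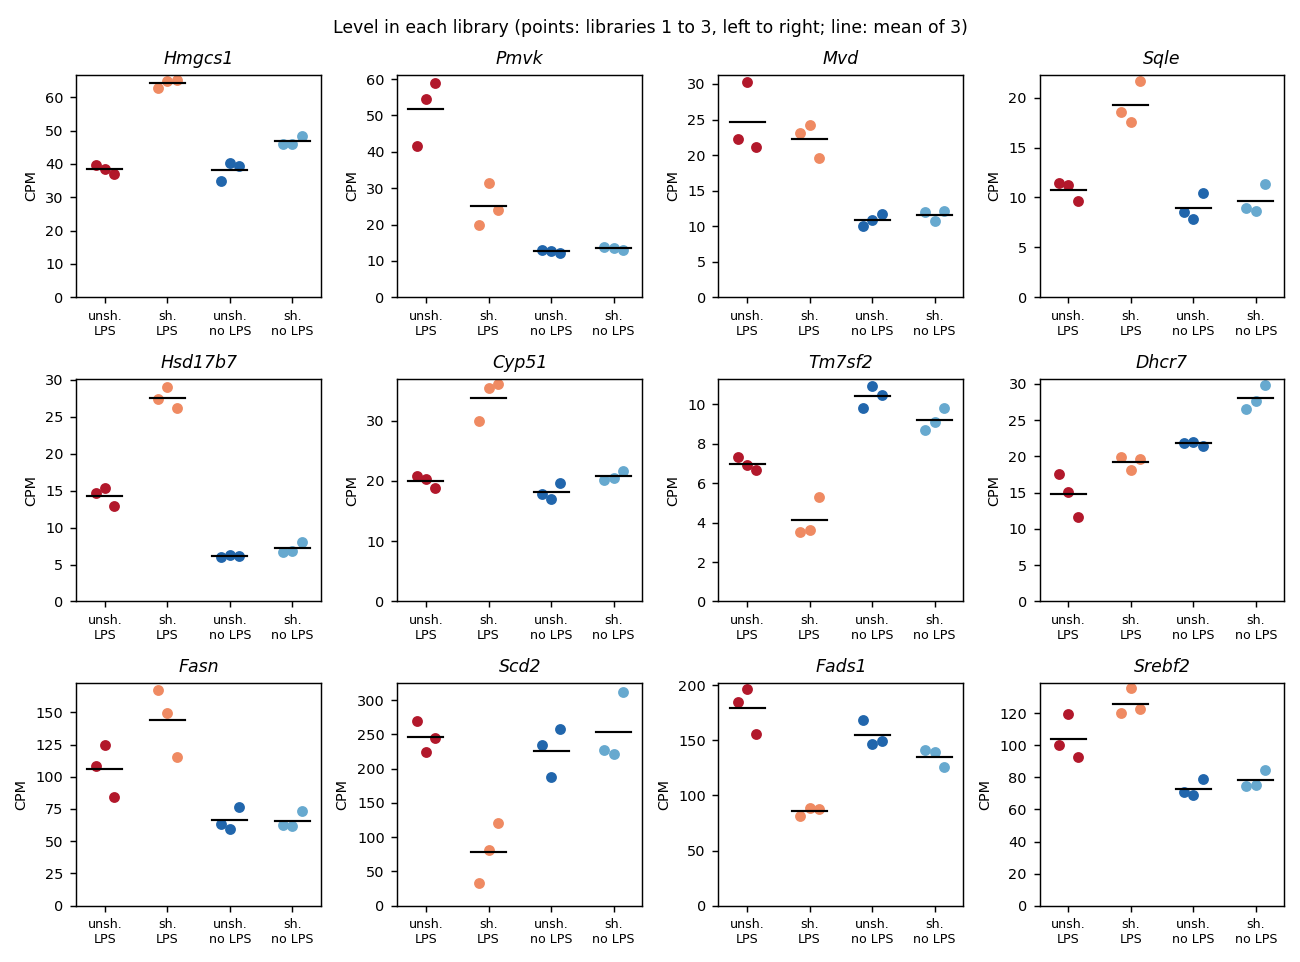
CPM in each library for 12 of the genes, with points for libraries 1 to 3 of each group from left to right and a line for the group mean; axes start at 0. The shielded LPS libraries are the highest for Hmgcs1, Sqle, Hsd17b7 and Cyp51 and the lowest for Tm7sf2, Scd2 and Fads1, and the unshielded LPS libraries are the highest for Pmvk.

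Among fatty acid genes, Acaca, acetyl-CoA carboxylase, was at 30.7, 30.4 and 25.5 CPM in unshielded LPS libraries, against 19.4, 20.5 and 23.4 CPM without LPS, and at 39.5, 37.2 and 40.99 CPM in shielded LPS libraries, against 22.1, 20.8 and 22.3 CPM without LPS. Fasn, fatty acid synthase, was at 108, 125 and 84.5 CPM in unshielded LPS libraries, against 63.03, 59.6 and 76.9 CPM without LPS, and at 167, 149 and 116 CPM in shielded LPS libraries, against 62.4, 61.5 and 73.6 CPM without LPS. Neither gene's LPS and no-LPS values overlapped in either setting. Acaca rose by 0.45 ± 0.10 (adjusted p = 0.0022) and 0.85 ± 0.10 (adjusted p = 8e-06), and Fasn by 0.67 ± 0.16 (adjusted p = 0.0057) and 1.13 ± 0.17 (adjusted p = 8.1e-05), in unshielded and shielded mice; neither unshielded gene passed with library totals. Acly, which makes cytosolic acetyl-CoA from citrate, was at 218, 229.8 and 177 CPM in unshielded LPS, 216, 225 and 210.4 CPM in unshielded without LPS, 348, 309 and 283 CPM in shielded LPS and 313, 321 and 286 CPM in shielded without LPS. LPS left it at -0.06 ± 0.11 and 0.03 ± 0.11 in unshielded and shielded mice (adjusted p = 0.68 and 0.81); with library totals the shielded value was -0.32 (adjusted p = 0.0046).

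The desaturases and the elongase fell in shielded mice. Scd2, a stearoyl-CoA desaturase abundant in brain, was at 269, 224 and 245 CPM in unshielded LPS libraries, against 234, 187 and 258 CPM without LPS, and at 33.4, 81.01 and 121 CPM in shielded LPS libraries, against 227, 221 and 311 CPM without LPS. Scd1, its paralogue, was at 21.9, 14.9 and 19.98 CPM in unshielded LPS libraries, against 22.03, 19.1 and 29.7 CPM without LPS, and at 3.74, 10.6 and 13.95 CPM in shielded LPS libraries, against 21.6, 23.5 and 32.03 CPM without LPS. For both, all 3 shielded LPS libraries were below all 9 others, the first library lowest, while the unshielded groups overlapped. Scd2 was at 0.12 ± 0.35 in unshielded (adjusted p = 0.80) and -1.69 ± 0.36 in shielded mice (adjusted p = 0.0018), and Scd1 at -0.32 ± 0.37 (adjusted p = 0.49) and -1.45 ± 0.38 (adjusted p = 0.0061). Reads of Scd1 and Scd2 can match each other and Scd3 and Scd4.

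Fads1 and Fads2, the desaturases of polyunsaturated fatty acids, fell in shielded mice too. Fads1 was at 185, 196 and 155 CPM in unshielded LPS libraries, against 168, 147 and 149.8 CPM without LPS, and at 81.2, 88.5 and 87.5 CPM in shielded LPS libraries, against 141, 139 and 126 CPM without LPS. The 3 shielded LPS values lay within a narrow range below all 9 others, and the log2 fold change was 0.21 ± 0.10 in unshielded (adjusted p = 0.11) and -0.66 ± 0.10 in shielded mice (adjusted p = 9.9e-05). Fads2 was at 4.19, 3.35 and 4.38 CPM in unshielded LPS libraries, against 5.15, 4.91 and 6.85 CPM without LPS, and at 1.24, 1.54 and 1.76 CPM in shielded LPS libraries, against 3.49, 3.68 and 4.76 CPM without LPS. All LPS libraries were below those without LPS in both settings, with log2 fold changes of -0.51 ± 0.21 (adjusted p = 0.064) and -1.40 ± 0.22 (adjusted p = 0.00014). Elovl6, which elongates palmitate, averaged 5.61 ± 0.376 and 6.99 ± 0.462 CPM in unshielded and 3.89 ± 1.004 and 6.89 ± 1.93 CPM in shielded mice with and without LPS, and fell in shielded mice (-0.83 ± 0.22, adjusted p = 0.0057) but was at -0.32 ± 0.22 in unshielded mice (adjusted p = 0.25).

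The neural marker level also fell with LPS in shielded mice. Across the 3 shielded LPS libraries, Scd1, Scd2, Elovl6 and Fads2 had the same order as this level, and Fads1 did not. That order was not particular to these genes. In shielded mice LPS lowered 9 of 10 neuron and 8 of 8 oligodendrocyte markers, beside 35.1% of all genes. In unshielded mice 0 of 10 and 1 of 8 passed as lower, beside 18.8% of all genes. The median log2 fold changes there were still below 0, at -0.73 for neuron and -0.66 for oligodendrocyte markers. The difference of the LPS effects between the settings passed for 0 of 10 and 0 of 8. The mean log2 CPM of these 18 markers was 4.86, 4.08 and 4.89 in unshielded LPS libraries, against 5.30, 5.30 and 5.39 without LPS. It was 2.50, 3.55 and 4.55 in shielded LPS libraries 1, 2 and 3. Scd1, Scd2, Elovl6 and Fads2 were also lowest in library 1 and highest in library 3, whereas Fads1 was level across them. Hmgcs1, Fdft1, Cyp51, Tm7sf2, Insig1 and Stard4 were likewise lowest in library 1 and highest in library 3. With this level as a covariate, the shielded LPS change was -0.21 for Scd1 (adjusted p = 0.62), -0.52 for Scd2 (adjusted p = 0.12), -0.14 for Elovl6 (adjusted p = 0.70), -0.81 for Fads2 (adjusted p = 0.032) and -0.71 for Fads1 (adjusted p = 0.0015). Fads1 and Fads2 kept their calls and the other 3 lost theirs. The covariate is itself lower in shielded LPS libraries, and its part and that of LPS cannot be told apart by it alone.

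**Figure D3:**
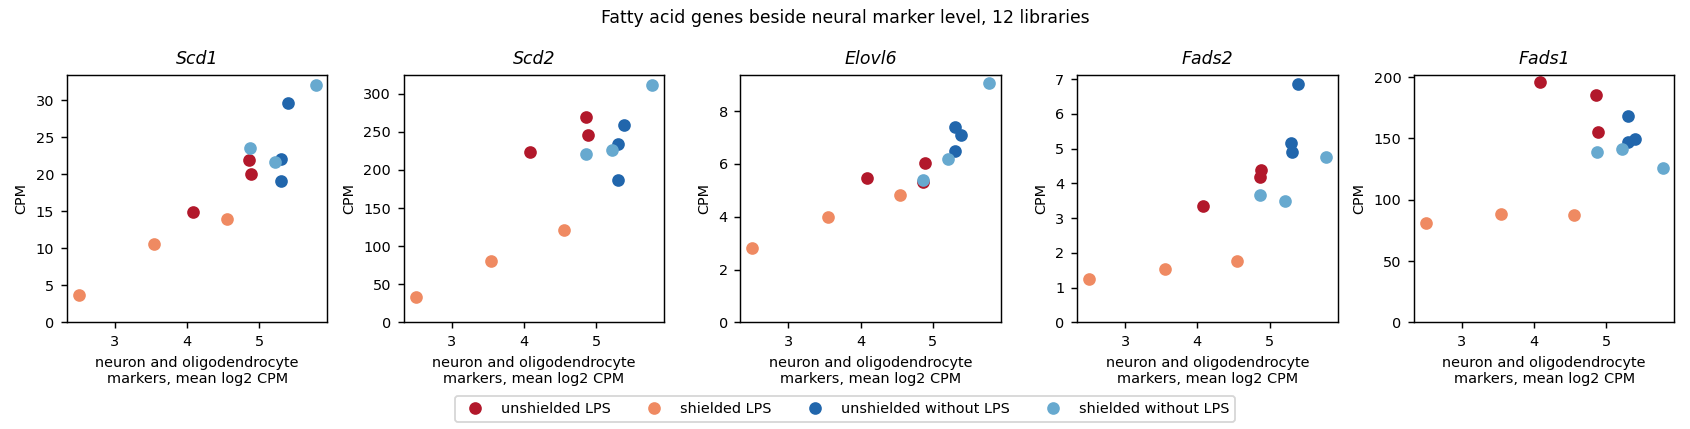
CPM of 5 fatty acid genes (vertical axes, from 0) against the mean log2 CPM of 18 neuron and oligodendrocyte markers (horizontal axes) in the 12 libraries, coloured by group. Scd1, Scd2, Elovl6 and Fads2 are lowest in shielded LPS library 1, which has the lowest marker level at 2.50, and Fads1 stays between 81.2 and 88.5 CPM in the 3 shielded LPS libraries.

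The second question was whether the cells of unshielded and shielded mice differed. Of the 10 microglial markers, 8 were lower in unshielded mice without LPS and 2 were not called, beside 6.85% of all genes called lower. After LPS these counts were also 8 and 2, beside 25.6% of all genes called lower. The part of this in the results on the shield was not tested. Without LPS the cells differed in few of the 32 genes. Of the 18 sterol genes, 2 were lower in unshielded mice and none was higher, of the 8 fatty acid genes 1 was lower and none higher, and of the 6 control genes 1 was lower and none higher, beside 3.98% of all genes called higher and 6.85% called lower; 1 of the 32 was higher at an unadjusted p below 0.05 and DESeq2 called 0 higher. The 4 were Hmgcs1 (-0.30 ± 0.07, adjusted p = 0.02), Sc5d (-0.28 ± 0.08, adjusted p = 0.049), Acly (-0.50 ± 0.11, adjusted p = 0.011) and Insig2 (-0.31 ± 0.08, adjusted p = 0.031). In the values given above, every unshielded library without LPS was below every shielded one for these 4. They passed the test on the same values, so this adds no separate support. Of the genes not called, Pmvk, Idi1, Cyp51, Msmo1, Nsdhl, Hsd17b7, Dhcr7, Scap and Stard4 were also lower in every such library. Fads1 and Fads2, not called either, were higher in every such library. The share of all genes without overlap was not counted. All 4 calls were lost without the 2 libraries of conflicting labels, but that leaves 1 shielded library without LPS. Over all genes 109 were then called higher and 183 lower, in place of 751 and 1292, so the loss says little of these 4 genes. Each was lost without 1 library in at least 4 of 12 cases. These were Acly without shielded library 1 or 2 or unshielded library 1 or 3 (log2 -0.54 to -0.47), Hmgcs1 without these or shielded library 3 (-0.34 to -0.23), Insig2 without these 5 or shielded LPS library 2 (-0.36 to -0.26), and Sc5d without any but unshielded LPS library 3 (-0.32 to -0.24).

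After LPS, 21 of the 32 genes differed. Unshielded mice had 9 of 18 sterol genes lower and 2 higher than shielded mice, 3 of 8 fatty acid genes lower and 4 higher, and 3 of 6 control genes lower and none higher, beside 19.1% of all genes called higher and 25.6% called lower. The median log2 difference was -0.30 for sterol and 0.77 for fatty acid genes, beside 0.07 for all genes. The sterol genes lower in unshielded mice were Hsd17b7 (-0.94 ± 0.10), Sqle (-0.84 ± 0.14), Cyp51 (-0.76 ± 0.09), Hmgcs1 (-0.74 ± 0.07), Idi1 (-0.66 ± 0.24), Acat2 (-0.56 ± 0.11), Sc5d (-0.40 ± 0.08), Msmo1 (-0.38 ± 0.09) and Dhcr7 (-0.38 ± 0.12), and the 2 higher were Pmvk (1.04 ± 0.15) and Tm7sf2 (0.75 ± 0.16). Adjusted p-values were 1.3e-05 for Hmgcs1, 2.5e-05 for Hsd17b7, 4.3e-05 for Cyp51, 0.00016 for Pmvk, 0.00056 for Sqle and 0.0015 for Acat2. The unshielded and shielded LPS libraries did not overlap for any of these 11. They passed the test on the same values, so this adds no separate support. Nsdhl, which was not called, did not overlap either, and the share of all genes without overlap was not counted. Idi1 lost its call without shielded LPS library 3 or unshielded LPS library 2 or 3 (log2 -0.82 to -0.48), and Dhcr7 without unshielded LPS library 3 (-0.25).

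Among fatty acid genes after LPS, Scd2 (1.65 ± 0.36, adjusted p = 0.0035), Fads2 (1.39 ± 0.22, adjusted p = 0.00028), Fads1 (1.06 ± 0.10, adjusted p = 1e-05) and Scd1 (1.01 ± 0.38, adjusted p = 0.048) were higher in unshielded mice. Acly (-0.59 ± 0.11, adjusted p = 0.001), Acaca (-0.44 ± 0.09, adjusted p = 0.0024) and Fasn (-0.44 ± 0.16, adjusted p = 0.042) were lower. The unshielded and shielded LPS libraries overlapped for Fasn and for no other of these called genes. Elovl6, which was not called, did not overlap either. With the neural marker level as a covariate, Scd2, Fads2 and Fads1 were still higher (1.02, 1.04 and 1.09) and Scd1 was at 0.30 (adjusted p = 0.34). The Scd1 call was lost without any 1 library but shielded LPS library 3 (log2 0.59 to 1.37), and the Fasn call without shielded LPS library 1 or 2 or unshielded LPS library 1 or 3 (-0.64 to -0.31). Astrocyte markers, which are not in that covariate, moved the same way as Scd2, Fads1 and Fads2 here, with 5 of 9 called higher in unshielded mice, 1 lower (Slc1a3) and a median log2 difference of 1.01. Their mean log2 CPM was 4.36, 3.88 and 4.49 in unshielded LPS libraries, against 2.60, 3.52 and 4.04 in shielded LPS libraries. Their part in the result was not tested. Elovl6 was at 0.53 ± 0.22 (adjusted p = 0.066). Of the control genes, Insig2 (-0.55 ± 0.08, adjusted p = 0.0002), Stard4 (-0.47 ± 0.11, adjusted p = 0.005) and Srebf2 (-0.27 ± 0.10, adjusted p = 0.049) were lower in unshielded mice. Srebf2 lost its call without shielded LPS library 2, shielded library 2 without LPS or unshielded LPS library 1 or 3 (-0.36 to -0.20).

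**Figure D4:**
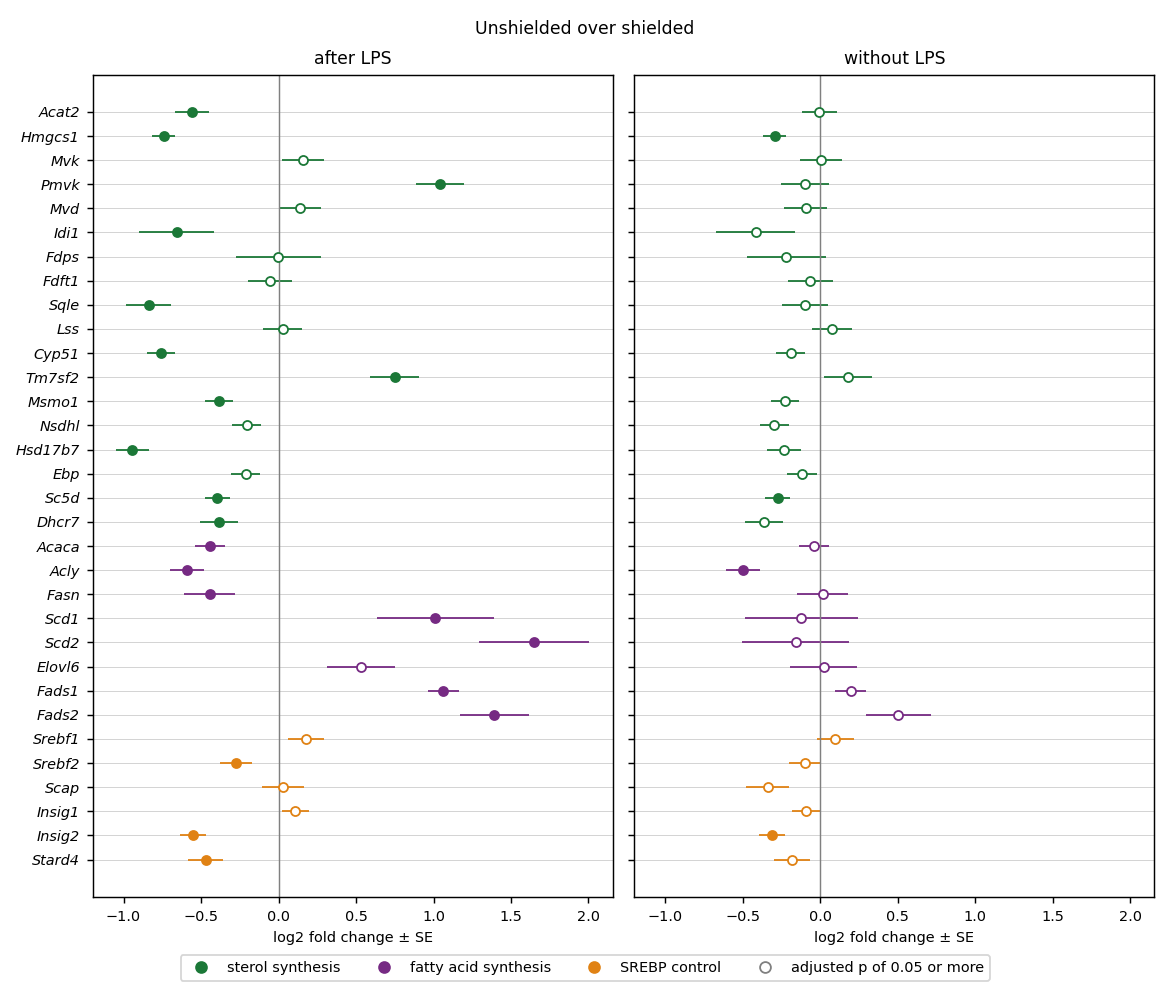
Log2 fold change of unshielded over shielded mice for the 32 genes after LPS (left) and without LPS (right), with bars of 1 SE and filled points for adjusted p below 0.05. After LPS, 21 points are filled, from Hsd17b7 at -0.94 to Scd2 at 1.65, and without LPS 4 are filled, all below 0.

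The test of the difference itself asked whether LPS changed a gene by a different amount in unshielded than in shielded mice. Of the 18 sterol genes, 5 had a smaller LPS effect in unshielded mice and 1 a larger one, and of the 8 fatty acid genes 2 had a higher and none a lower one, beside 4.06% of all genes called higher and 9.25% called lower. No control gene was called, and 0 of the 6 had an unadjusted p below 0.05 and 0 passed in DESeq2. The 5 were Sqle (-0.74 ± 0.21, adjusted p = 0.034), Hsd17b7 (-0.71 ± 0.15, adjusted p = 0.01), Cyp51 (-0.56 ± 0.13, adjusted p = 0.014), Acat2 (-0.55 ± 0.16, adjusted p = 0.038) and Hmgcs1 (-0.45 ± 0.10, adjusted p = 0.015). Pmvk had the larger effect (1.14 ± 0.22, adjusted p = 0.0062). The fatty acid genes were Scd2 (1.81 ± 0.49, adjusted p = 0.036) and Fads1 (0.87 ± 0.14, adjusted p = 0.003). With library totals, 1 of the 5 kept its call (Hsd17b7), and with no filter on low counts 0 did. Pmvk and Fads1 kept theirs under both, and Scd2 with library totals. None of these 8 calls held without the 2 libraries of conflicting labels. That leaves an arm of 1 library, whose spread is taken from the other groups, and over all genes 83 were then called higher and 65 lower, in place of 767 and 1745. There Fads1 was at adjusted p = 0.0502 and Pmvk at 0.074. The calls of Acat2, Scd2 and Sqle were also lost without single libraries. They were lost for Acat2 without any but shielded LPS 3 and unshielded LPS 3 (log2 -0.63 to -0.49), for Scd2 without any but shielded LPS 1 and 3 (1.41 to 2.21), and for Sqle without shielded library 1 or 2 without LPS, unshielded LPS library 3 or unshielded library 3 without LPS (-0.92 to -0.65).

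**Figure D5:**
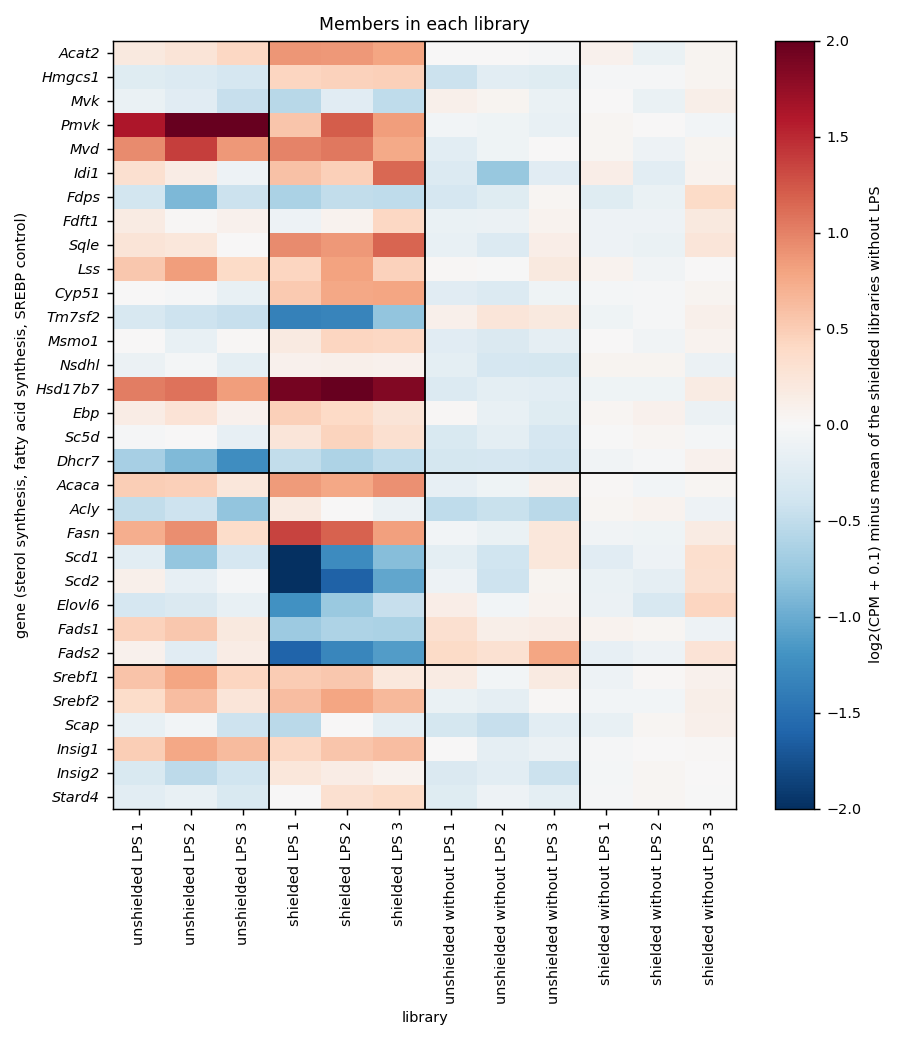
Log2(CPM + 0.1) of each gene in each library minus its mean in the shielded libraries without LPS, with red above and blue below; rows run from sterol through fatty acid to control genes and columns from unshielded LPS to shielded without LPS. Pmvk is reddest in the unshielded LPS libraries, Hsd17b7 in the shielded LPS libraries, and Scd1, Scd2 and Fads2 are blue in the shielded LPS libraries.

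Levels of different genes can be compared only per length. In CPM per kilobase of exon, using the exon lengths of GENCODE vM21, Acly at 58.1 was the highest of the 32 in shielded libraries without LPS, followed by Scd2 at 46.3, Fads1 at 28.1 and Srebf1 at 14.8. The lowest were Fdps at 0.321 and Idi1 at 0.487. The sterol genes of that group therefore spanned from 0.321 for Fdps to 13.3 for Ebp in these units. The level of Fdps is uncertain, since it had 23 to 81 reads per library and shares exons. The order differed in other groups. Scd2 was highest in unshielded mice, at 45.0 with and 41.4 without LPS, and Pmvk reached 30.2 in unshielded LPS.

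Genes of neighbouring branches were counted from lists chosen with earlier results of these data known. Their counts stand beside 24.3% of all genes called higher and 18.8% called lower with LPS in unshielded mice, and 32.4% and 35.1% in shielded mice. The isoprenoid branch, which uses farnesyl diphosphate for dolichol, coenzyme Q and protein prenylation, had 5 of 12 genes higher with LPS in unshielded mice and 11 of 12 in shielded mice, with none lower in either. With library totals 1 was higher and 1 lower in unshielded and 9 were higher in shielded mice. Nus1, a subunit of the enzyme that makes dolichol chains, rose by 0.92 ± 0.09 and 1.19 ± 0.09 in unshielded and shielded mice, and Pdss1, which makes the coenzyme Q tail, by 0.58 ± 0.13 and 1.53 ± 0.14; the unshielded call of Pdss1 was lost with library totals (0.28, adjusted p = 0.087). After LPS, 10 of the 12 were lower in unshielded than in shielded mice, beside 25.6% of all genes. Dhdds (-0.76 ± 0.08), the partner of Nus1, led them. Without LPS 1 of the 12 was lower and 1 higher, beside 6.85% and 3.98% of all genes. The difference of the LPS effects passed for 5, all lower in unshielded mice, beside 9.25% of all genes. First was Rabggtb (-0.72 ± 0.13), a subunit of the transferase that prenylates Rab proteins.

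Of 12 sterol handling genes, LPS raised 7 and lowered 1 in unshielded mice and raised 8 and lowered 1 in shielded mice. With library totals these were 1 and 3 in unshielded and 5 and 3 in shielded mice. Ubxn8 rose by 0.61 ± 0.08 and 1.13 ± 0.08, and Npc1, the lysosomal exporter of cholesterol, was lower at -0.64 ± 0.09 and -0.66 ± 0.09. Of 27 tested genes of other lipid synthesis steps, 12 rose and 5 fell in unshielded mice and 12 rose and 8 fell in shielded mice. With library totals 7 rose and 12 fell in unshielded and 8 rose and 12 fell in shielded mice. The shares that fell, 5 of 27 and 8 of 27, were near those of all genes. Hacd2 and Elovl5, of very-long-chain fatty acid elongation, rose by 1.12 ± 0.10 and 1.25 ± 0.10 in unshielded and 2.01 ± 0.10 and 1.60 ± 0.10 in shielded mice, while Thrsp, a regulator of fatty acid synthesis, was lower at -1.73 ± 0.28 and -3.07 ± 0.29. Of 13 LXR and oxysterol genes, 2 rose and 3 fell in unshielded and 4 rose and 7 fell in shielded mice (2 and 6, and 4 and 8, with library totals). The 3 of 13 lower in unshielded and 4 of 13 higher in shielded mice were near the shares of all genes. Ch25h, which makes 25-hydroxycholesterol, rose by 1.499 ± 0.29 and 4.33 ± 0.33, and the difference between the settings passed the test (-2.83 ± 0.42, adjusted p = 0.0028). Cyp27a1, which makes 27-hydroxycholesterol, and Abcg1, a sterol exporter, were lower at -1.41 ± 0.14 and -0.43 ± 0.09 in unshielded and -2.54 ± 0.15 and -1.65 ± 0.10 in shielded mice.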

How the data were processed

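RNA-seq was measured in 12 libraries of CD11b-selected brain cells, 3 in each of 4 groups by title. Linear amplification of the RNA preceded library preparation, per the labels' protocols, and its variation adds to the spread among libraries. The tools were FastQC, STAR and HTSeq with mm9, per the submitters' processing notes; their versions, the annotation and the strand setting were not given in the sources used here. Raw counts were deposited by the authors, as whole numbers of reads per gene.

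The tests used edgeR 4.0.16 under R 4.3.3 (robust quasi-likelihood, TMM, two-sided, Benjamini-Hochberg over 18875 genes, threshold 0.05) in 1 model over all 12 libraries, after filterByExpr (minimum count 10, minimum total 15). The fit was also run on simulated counts with 200 changed genes and 1 spread shared by all genes. The filter, shifts in cell types and the difference of LPS effects were not simulated, so that run says little of these libraries. Standard errors were derived from the fold change and the F statistic (log2 fold change over root F, unsigned). CPM values use TMM-scaled library sizes. Symbols came from the reference table; 254 identifiers had none. Exon lengths and shared exons came from GENCODE vM21 on GRCm38, another build than mm9, so no mm9 coordinates are given; 11 of the 32 genes share exons with another and are uncertain (Hmgcs1, Idi1, Fdps, Fdft1, Lss, Cyp51, Tm7sf2, Scd2, Elovl6, Srebf1 and Scap). Libraries of a group were not copies (chi-square per degree of freedom at least 12.5). The replicate numbers come from the titles, and what they mark is not stated in the sources used here. Deviations of same-numbered shielded libraries from their group means correlated across genes (r = 0.11, 0.19 and 0.55 for LPS and no LPS). A replicate block was therefore also run in the shielded groups.

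The members and lists were chosen with earlier results of these data known. All 32 genes are accounted for. Values per library are given for 6 genes (Srebf1, Srebf2, Insig1, Insig2, Scd1 and Scd2) and, in each comparison, for the 6 sterol and 4 other called genes with the smallest p; of the neighbouring lists a few of the genes with the smallest p are named. Alternatives were other scalings, no filter, DESeq2 1.42.0, a replicate block, leaving out each library, both other readings of the 2 conflicting labels, only the groups compared, and a marker covariate.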

Additional observations from a re-analysis of the deposited data

Results flagged for a closer look

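For 8 of the 32 genes the LPS effect in unshielded mice differed from that in shielded mice by the test of the difference itself. The difference of the log2 fold changes, unshielded minus shielded, was -0.55 for Acat2 (adjusted p = 0.038), -0.45 for Hmgcs1 (adjusted p = 0.015), -0.74 for Sqle (adjusted p = 0.034), -0.56 for Cyp51 (adjusted p = 0.014) and -0.71 for Hsd17b7 (adjusted p = 0.010). It was 1.14 for Pmvk (adjusted p = 0.0062), 1.81 for Scd2 (adjusted p = 0.036) and 0.87 for Fads1 (adjusted p = 0.0030). With library totals the calls of Acat2, Hmgcs1, Sqle and Cyp51 were lost, with no filter on low counts those of all 5 genes with a negative difference and of Scd2, and without the 2 libraries of conflicting labels all 8, where 1 shielded library without LPS is left. No library was examined as standing apart within its group, because groups of 3 are too small for that.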

How the results depend on the processing

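Of 73 gene calls, 26 were lost with library totals, 18 with no filter, 17 with the neural marker covariate, 29 without the 2 libraries of conflicting labels and 66 with these grouped by their treatment field, against 4 with DESeq2 size factors, 3 with DESeq2 and 8 with only the groups compared (no value for the difference). The cause was not tested. In the counts that follow, the LPS effect is named by its setting. Library totals gave 6 sterol genes higher in shielded, and in unshielded mice 3 higher and 4 lower and 0 fatty acid genes higher and 2 lower; they gave 0 sterol genes lower for the shield without LPS and 1 lower for the difference. They turned round Nsdhl (-0.26), Sc5d (-0.0092) and Acly (-0.32) in shielded and Hmgcs1 (-0.29), Ebp (-0.013) and Sc5d (-0.082) in unshielded mice. No filter gave 4 sterol genes higher in unshielded mice, 0 lower for the shield without LPS, and 0 sterol genes lower and 1 fatty acid gene higher for the difference. DESeq2 gave 1 fatty acid gene lower in unshielded mice, 1 sterol gene lower for the shield without LPS and 1 fatty acid gene lower for the difference, and DESeq2 size factors 1 sterol gene lower for the shield without LPS. The covariate gave 2 sterol and 2 fatty acid genes lower in shielded mice, and 5 sterol genes lower and 1 fatty acid gene higher for the shield without LPS. Without the conflicting libraries, shielded LPS gave 7 sterol genes higher and 1 lower and 3 fatty acid genes lower, unshielded LPS 4 sterol genes higher, and the shield without LPS and the difference 0 in each direction. By the treatment field, sterol and fatty acid counts were 0 for shielded LPS, the shield without LPS and the difference, unshielded LPS had 1 sterol gene higher and 0 lower and 0 fatty acid genes higher, the shield after LPS had 1 in each direction in both lists, and Fdps turned to 0.046 in shielded mice. With the replicate block over all libraries, unshielded LPS had 1 fatty acid gene lower (Fads2, adjusted p = 0.029), Acat2 was lost there (adjusted p = 0.054), Fasn was lost for the shield after LPS (adjusted p = 0.058) where Ebp and Elovl6 were gained, and Fads2 was gained for the difference; the block in the shielded groups alone left 2 sterol genes lower and changed no other call there. In the comparisons other than shielded LPS, same-numbered deviations correlated at -0.11, -0.09 and 0.02 for unshielded LPS. Between shield settings they correlated at 0.14, -0.02 and 0.12 in mice not given LPS, and at -0.26, 0.15 and 0.48 after LPS. What the numbers mark is not stated in the sources used here, and these values do not settle whether libraries are paired. Leaving out 1 library gave, for sterol genes higher and lower, 12 and 2 to 4 in shielded LPS, 4 to 6 and 2 in unshielded LPS, 0 and 0 to 3 by the shield in mice without LPS, 2 and 7 to 10 after LPS, and 1 to 2 and 3 to 5 for the difference. For fatty acid genes higher and lower it gave 2 and 5, 2 to 3 and 0 to 1, 0 and 0 to 1, 3 to 5 and 2 to 3, and 1 to 4 and 0 to 2 in the same order.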
